A study of Mus musculus with 6 samples.

Results

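Kidney granulocytes were examined as the cells of 3 mouse kidney libraries that held at least 10 unique molecular identifiers (UMIs, each marking 1 captured RNA molecule) of S100a8 and S100a9 together, at most 2 of the C1q genes C1qa, C1qb and C1qc, at most 1 of Pecam1, and 0 of Cd79a and of the Cd3 genes. The rule found 86 cells among the 24212 kidney cells that held 200 to 3000 genes and at most 50% mitochondrial UMIs. S100a8 and S100a9 encode the subunits of calprotectin, a calcium-binding protein that fills the cytoplasm of neutrophils. The excluded genes mark macrophages (C1q), endothelial cells (Pecam1), B cells (Cd79a) and T cells (Cd3). Because the members were chosen by these measured counts, the levels of the gate genes are given as a description, with no test.

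Neutrophils, the most abundant granulocytes, are made in the bone marrow, where they load granules with proteases and antimicrobial proteins and then stop making the messages for them. They follow chemokines such as Cxcl2 and bacterial peptides into tissue through receptors such as Cxcr2 and the formyl peptide receptors, depend on the cytokine G-CSF for survival, and kill microbes with enzymes and with oxidants from the NADPH oxidase. A healthy kidney holds few of them, and they respond within minutes to handling, with immediate early genes such as Fos and then with cytokine messages.

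The study digested minced tissue either for 60 min in a conventional control or in a microfluidic platform, from which cells were collected at 15 min and then, from the tissue that remained, at a 60 min interval. All kidney libraries came from C57BL/6 mice aged 12 weeks, and the tumor libraries used for comparison came from mammary tumors of MMTV-PyMT mice aged 10 weeks, a line in which the polyoma middle T antigen is driven in the mammary epithelium. Control and platform cells alike were released with 0.25% type I collagenase, treated with DNase and red blood cell lysis buffer, and sorted as live (SytoxBlue-negative) cells before droplet capture. There was 1 library per condition and tissue, so no difference below has a replicate check, no test was made, and the 95% intervals in parentheses cover counting error only. The kidney libraries held 8233, 12082 and 13719 deposited cells and between 69691783 and 116998401 UMIs over 31053 genes. Fewer cells of a type and less RNA per cell can both lower the number of cells that pass a count minimum, and these cannot be told apart here.

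Granulocytes were recovered from every kidney library but made up very different shares. The control held 35 of 5886 kept cells (0.595%, 0.415 to 0.826, exact binomial interval), the 15 min interval 8 of 8390 (0.0954%, 0.0412 to 0.188) and the 60 min interval 43 of 9936 (0.433%, 0.313 to 0.583). The share at 15 min was 0.160 times that of the control (0.0744 to 0.345), and the interval of the 15 min share lay wholly below those of both other libraries. At 60 min the ratio to the control was 0.728 (0.466 to 1.14), within counting error of no difference. With the 15 min share weighted 1 and the 60 min share weighted 1.5, as an estimate of cell yield, the platform total over the control was 1.25 (0.815 to 1.92). The interval includes an equal yield. This value is not a ratio of shares, because shares equal to the control would give the sum of the weights, which lies above the interval. Macrophages, the phagocytes resident in the kidney, were also least frequent at 15 min, with 13.5%, 1.48% and 14.0% of kept cells in the control, 15 min and 60 min libraries by a C1q rule, so that 4.39, 6.45 and 3.08 granulocytes were found per 100 macrophages.

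**Figure D1:**
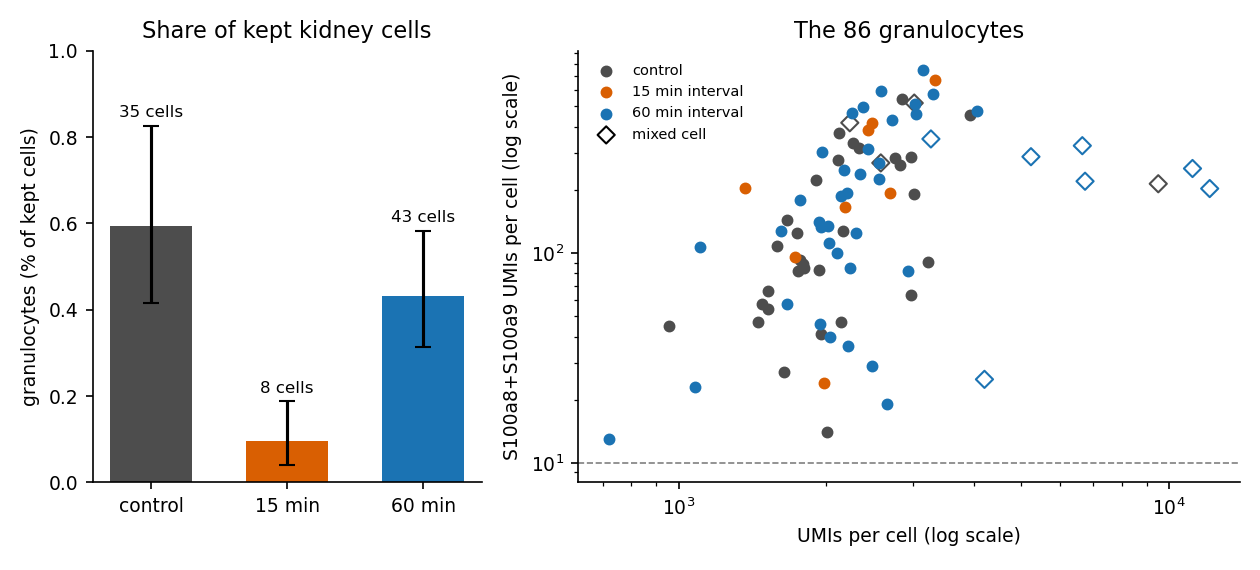
Left, granulocytes as a percentage of kept kidney cells in each library, with exact 95% binomial intervals and the number of cells above each bar. Right, UMIs of S100a8 and S100a9 against all UMIs for each of the 86 cells (both axes logarithmic), with the gate minimum of 10 UMIs dashed and cells that also held many proximal tubule or monocyte UMIs drawn as open diamonds. The 15 min bar stands below the other bars, and all 6 cells with more than 5000 UMIs are open diamonds.

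Few cells lay near the minimum of the gate. The 5 members nearest to the minimum held 13, 14, 19, 23 and 24 UMIs of S100a8 and S100a9, while the 5 kept cells nearest below it that met the other criteria held 8, 7, 3, 1 and 1. A further 6 kept cells reached the minimum but failed another criterion, 2 for Pecam1, 1 for Cd79a and 3 for Cd3 genes. Among cells outside the limits on genes or mitochondrial UMIs, 0, 2 and 3 would have met the gate in the control, 15 min and 60 min libraries. No member shared its barcode with a kept cell of another kidney library.

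The cells were small in RNA content, which is usual of neutrophils. Their median was 2113, 2310 and 2348 UMIs and 829, 931 and 872 genes in the control, 15 min and 60 min libraries, against 5071, 6611.5 and 4583 UMIs over all kept cells of those libraries. Median mitochondrial shares were 4.01%, 1.5% and 3.58%, against 7.38%, 20.4% and 8.59% over all kept cells. The 8 granulocytes of the 15 min interval had mitochondrial shares of 0.293% to 6.53%, although that library had the highest mitochondrial median of the 3. S100a8 and S100a9 made up a median of 5.90%, 11.3% and 7.31% of a member's UMIs.

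A few members carried messages of a further cell type. In the control 4 of the 35 and at 60 min 7 of the 43 held at least 15 UMIs of Kap, Miox, Gpx3 and Fxyd2, which proximal tubule cells express, or of the monocyte genes Csf1r, Ly6c2, Ccr2, F13a1, Ms4a6c and Fn1. Of the 7, 6 held tubule messages and 1, the cell with the most UMIs (12096), held monocyte messages, while no cell of the 15 min interval did so. These 11 cells, called mixed cells below, were set apart after the counts had been seen. The 6 genes of a proximal tubule list summed to 10689, 2308 and 16651 CPM (a gene's UMIs per 1000000 UMIs of a library's pooled members) in the control, 15 min and 60 min libraries, and to 1662, 2308 and 2485 CPM in the 75 unmixed cells. The 6 monocyte genes summed to 132, 110 and 298 CPM, and to 121, 110 and 110 CPM without the mixed cells. Counts of genes between the control and 60 min are therefore given with and without them. Single values without them stand beside those over all members where they differ most at 60 min. Ratios of single genes at 15 min are against all control members, whose unmixed cells held 66201 of 83544 UMIs.

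The label was met by genes that the gate had not used. Beside S100a8 and S100a9, whose detection the gate required, the other genes of the 10-gene granulocyte marker list were all detected, and each of the 86 cells held at least 1 UMI of Csf3r, Cxcr2 or Retnlg. Csf3r, the receptor for G-CSF, was present in 35 of 35, 8 of 8 and 42 of 43 cells at 1843, 1868 and 1313 CPM. Its interval at 60 min (1124 to 1524) lay just below that of the control (1564 to 2159), and without mixed cells the ratio of 60 min to control was 0.822 (0.645 to 1.05). Retnlg, a small secreted resistin-like protein of neutrophils (chromosome 16, 48872621 to 48874496, plus strand, mm10), was found in 27 of 35, 7 of 8 and 36 of 43 cells at 4692, 5549 and 3098 CPM. The level of Retnlg varied widely within each library, from 0 UMIs per 10,000 up to 329 among control cells, 225 among 15 min cells and 216 among 60 min cells, with medians of 14.0, 30.1 and 19.4.

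Several genes of mature neutrophils were seen in most cells, while most granule genes of bone marrow precursors were at or near 0. Msrb1, a selenoprotein that repairs oxidized proteins, was held by all 86 cells, Hdc, which makes histamine, by 95.3%, Slpi, an inhibitor of neutrophil elastase, by 91.9% and Clec4d, a lectin receptor, by 89.5%. Msrb1 was not particular to the members, since 86.9% of 1000 sampled proximal tubule cells also held it. The gelatinase Mmp9, a late granule protein, was in 84.9% of cells, and the chemokine receptor Cxcr2 in 60.5%. A mature neutrophil list of 14 genes holds Mmp9 and Cxcr2 but not Msrb1, Hdc, Slpi or Clec4d. Of its genes 9 were held by most cells, whereas Fpr1, Fpr2, Cebpd, Stfa2l1 and Ifitm1 were each held by a minority. The formyl peptide receptor Fpr1 was in 11.4%, 37.5% and 20.9% of control, 15 min and 60 min cells, and Stfa2l1 in 34.9% of all members. The early granule genes Mpo, Elane and Ctsg and the specific granule genes Camp, Ngp and Fcnb had 0 UMIs in all 86 cells, as did the proliferation genes Mki67 and Top2a. Of the 15 genes of an immature neutrophil list 7 were at 0. The list was carried by Hmgb2, a chromatin protein, and Cd63, a granule membrane protein, which neutrophils of other stages may also express and which were in 75.6% and 48.8% of cells. Lcn2, an iron-withholding protein of the specific granules, was in 44.2% of cells at 550 CPM. Ltf had 2 UMIs, and Chil3 had 7, of which 6 came from 1 mixed cell. Ly6g, the surface protein used to sort mouse neutrophils, had only 6 UMIs in 5 cells. A count of 0 over the pooled members allows a level of up to 3 counts in their UMIs, so that expression below this was not detectable.

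Other granulocytes contributed little. The 5 basophil and mast cell genes had 0 UMIs in total, and of the 4 eosinophil genes only 1 was detected, with 1 UMI. Of the T and NK cell genes that the gate had not set to 0, Nkg7 and Klrb1c were at 0 and Gzma had 1 UMI. Of 7 macrophage genes C1qa, C1qc and Ms4a7 were at 0, of which the gate limited the C1q genes, with sums of 156, 55.0 and 702 CPM in the control, 15 min and 60 min libraries against 22597 CPM in macrophages. Proximal tubule cells were used to show what free RNA can add. Of 1000 such cells thinned to 500 UMIs, 0 held Retnlg, Cxcr2, Csf3r or Mmp9, which allows a share of up to 0.3% each. Msrb1 was held by 28.2% of them. After the same thinning 17 of 35, 4 of 8 and 26 of 43 granulocytes held Retnlg and 24, 6 and 26 held Csf3r.

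Among genes with at least 50 UMIs in the members and present in 20% of them, those with the highest ratio to all other kept kidney cells were Retnlg, S100a8, Il1f9, S100a9, Stfa2l1, Asprv1, Cxcr2, Trem1, Slfn4 and Acod1. Il1f9 encodes the IL-36 gamma cytokine, Stfa2l1 a stefin A protease inhibitor, Trem1 an activating receptor, and Acod1 the enzyme that makes itaconate in activated myeloid cells. These genes set the members apart from cells that the gate had removed, so the ranking is a description of the chosen cells. After S100a9 (46016 CPM) and S100a8 (33881 CPM), the most abundant non-mitochondrial RNAs, not all of them messages, were Malat1, Gm42418, Tmsb4x, Fth1, Il1b, Kap and Cxcl2. Kap, a proximal tubule message at 9575 CPM over all members, was at 1198 CPM in the unmixed cells. Il1b, the inflammatory cytokine IL-1 beta, made up 1.08% of all UMIs and was present in all 86 cells, and Cxcl2, a chemokine that draws in further neutrophils through Cxcr2, made up 0.935% and was present in 90.7%. UMIs count the 3' ends of molecules and do not scale with transcript length, so these levels compare molecules between genes.

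The 8 cells of the 15 min interval stood apart in several, though not all, immediate early genes. Because 8 cells are few, the values are given without a count of genes. Fos, the transcription factor subunit of AP-1 that is switched on within minutes of many stimuli, had 103 UMIs in the 35 control cells, 248 in the 8 cells at 15 min and 127 in the 43 cells at 60 min. These correspond to 1233 CPM (1006 to 1495, exact Poisson interval), 13626 CPM (11983 to 15432) and 969 CPM (808 to 1153). At 15 min Fos was therefore 11.1 times the control level (8.75 to 14.0) and 14.1 times the 60 min level (11.3 to 17.6).

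The difference was seen in each cell. The 8 cells held 11, 24, 35, 31, 30, 33, 23 and 61 Fos UMIs, or, per 10,000 UMIs, from 80.6 to 183 with a median of 136. The control cells held 0 to 42.5 with a median of 10.4, and those at 60 min 0 to 80.9 with a median of 7.44. No control cell reached the lowest 15 min cell, and of the 60 min cells only the highest did so. After thinning to 500 UMIs, Fos was found in all 8 cells at 15 min, in 42.9% of control cells and in 34.9% of 60 min cells, compared with 2.50% of proximal tubule cells and 57.3% of macrophages, whose medians before thinning were 6717.5 and 6581 UMIs. Without thinning it was found in 82.9%, 100% and 76.7% of the control, 15 min and 60 min granulocytes and in 9.80% of proximal tubule cells.

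Several other immediate early genes and feedback regulators followed. Junb, a partner of Fos, stood at 3447, 10275 and 2610 CPM in the order control, 15 min and 60 min, and its 15 min level was 2.98 times the control's (2.47 to 3.60). Dusp1, a phosphatase that shuts off MAP kinases, was at 2621, 9560 and 2526 CPM, a 15 min ratio of 3.65 (2.97 to 4.47). Zfp36, which marks cytokine messages for decay, was at 993, 4286 and 923 CPM, a ratio of 4.31 (3.13 to 5.95). For Dusp1 the lowest 15 min cell (69.7 per 10,000) exceeded the highest control cell (68.3), whereas the ranges of Junb and Zfp36 overlapped with the control. The Dusp1 ranges of 15 min and 60 min cells did overlap. That lowest 15 min cell held 17 Dusp1 UMIs among 2439, and a 60 min cell held 13 among 1620, a larger part. Egr1 (455, 1813 and 282 CPM), Ier2 (610, 2143 and 580 CPM) and Btg2, an antiproliferative early gene (2430, 4670 and 2411 CPM), had the same order, with 15 min ratios of 3.99, 3.51 and 1.92.

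The 12 stress response genes that the study displayed did not move together. Jund was also higher at 15 min (2454, 3846 and 2824 CPM), but the DNA damage gene Gadd45b was at 4752, 1758 and 2991 CPM and the stress factor Atf3 at 1197, 604 and 839 CPM, both lowest at 15 min. The chaperones Hsp90aa1 and Hspa8 had 1 and 4 UMIs at 15 min, or 54.9 and 220 CPM, against 311 and 575 CPM in the control. Summed, the 12 genes were 2.07 times the control at 15 min (1.88 to 2.28) and 0.802 times at 60 min (0.746 to 0.861). Against the unmixed control cells the 15 min ratio was 1.85 (1.68 to 2.04). In single cells, scaled as for Fos above, the medians were 140, 346 and 139 in the control, 15 min and 60 min libraries. The median cell was therefore nearly level between the control and 60 min. The study displayed these genes for the same libraries, called them common stress response genes and gave no rule for selecting them. The direction of the list is therefore not independent evidence. Both ratios share the control library.

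The upstream sequences of Fos, Dusp1 and Btg2 are shown because these genes were high together at 15 min and each holds the letters TGACGT, the core of the site bound by the CREB and ATF factors. The capitals mark matches on either strand, overlapping ones included, in RefSeq promoter windows of assembly GRCm38.p6, written in the direction of the gene. The genes were picked after their values had been seen. Of the stress and NF-kB feedback lists, Atf3, Btg1, Rel and Tnfaip3 held the letters too, and Atf3 was lowest at 15 min. Junb, Zfp36, Egr1 and Ier2, also high at 15 min, were not among the holders, although some listed genes had no window. Whether the letters go with the 15 min rise was not tested. The Fos window covers chr12:85473640-85473889 (plus strand), the Dusp1 window chr17:26508473-26508722 (minus strand) and the Btg2 window chr1:134079156-134079405 (minus strand), 250 bases before each RefSeq start.
Fos: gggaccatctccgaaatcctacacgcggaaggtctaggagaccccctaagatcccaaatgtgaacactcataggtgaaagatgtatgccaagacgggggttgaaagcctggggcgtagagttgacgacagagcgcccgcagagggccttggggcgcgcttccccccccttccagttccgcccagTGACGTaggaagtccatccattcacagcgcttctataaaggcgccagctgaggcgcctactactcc
Dusp1: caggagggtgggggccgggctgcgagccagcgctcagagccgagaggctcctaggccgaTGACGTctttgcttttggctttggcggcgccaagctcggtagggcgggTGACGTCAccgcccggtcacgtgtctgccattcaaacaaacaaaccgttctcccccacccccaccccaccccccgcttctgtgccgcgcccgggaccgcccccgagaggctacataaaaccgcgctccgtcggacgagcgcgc
Btg2: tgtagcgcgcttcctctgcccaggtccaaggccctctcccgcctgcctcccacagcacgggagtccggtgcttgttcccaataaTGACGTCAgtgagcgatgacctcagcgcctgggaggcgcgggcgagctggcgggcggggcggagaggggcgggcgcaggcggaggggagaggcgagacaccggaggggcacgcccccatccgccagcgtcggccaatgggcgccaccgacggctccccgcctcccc

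The Fos window has 1 match, starting 66 bases before the start. The Dusp1 window has 3, at 191, 143 and 141 bases, the last pair overlapping as TGACGTCA, and the Btg2 window has such an overlapping pair at 166 and 164 bases. Over the stress and NF-kB feedback lists, 7 of 29 windows held TGACGT (24.1%), against 6.47% of all 32851 windows. It was also in 15% of the windows of the cytokine and chemokine list and in 14.3% of those of the glycolysis and hypoxia list. The stress and NF-kB feedback windows likewise lay above all windows for the other patterns given below. A match is a description of these letters and not of binding.

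Cytokine genes diverged at 15 min. Il1b stood at 7421 CPM in control cells, at 19945 CPM in the 15 min cells and at 11668 CPM in the 60 min cells, and Ptgs2, the prostaglandin synthase COX-2, at 766, 2143 and 1038 CPM. Both were highest in the 15 min library, Il1b by 2.69 times the control (2.35 to 3.06) and Ptgs2 by 2.80 times (1.83 to 4.23). Cxcl2 was instead lowest in the 15 min library, with 7601 CPM in control cells (7021 to 8216), 3571 CPM after 15 min (2756 to 4552) and 11264 CPM after 60 min (10696 to 11853). In single cells the ranges of Cxcl2 overlapped, at 0 to 386 UMIs per 10,000 for control cells, 0 to 109 for 15 min cells and 0 to 518 for 60 min cells, with medians of 59.2, 19.8 and 104.

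The Cxcl2 window, shown because Cxcl2 was the most abundant chemokine of the members, covers the 222 bases before its start (chr5:90903649-90903870, plus strand, GRCm38.p6), and its capitals mark 2 overlapping matches, 1 on each strand, to a pattern that NF-kB sites share, GGGA and CC with any 4 bases between them, at 69 and 68 bases before the start.
Cxcl2: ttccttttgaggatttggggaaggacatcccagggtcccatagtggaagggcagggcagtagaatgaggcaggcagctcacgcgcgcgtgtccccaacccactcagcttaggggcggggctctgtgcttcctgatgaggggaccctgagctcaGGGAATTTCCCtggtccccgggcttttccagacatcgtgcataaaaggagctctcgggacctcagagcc
On either strand the pattern was held by 9 of the 20 windows of the cytokine and chemokine list and by 17.6% of all windows. It was held by 13 of 29 windows of the stress and NF-kB feedback lists and by 1 of 21 of the glycolysis and hypoxia list.

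The chemokines Ccl3 and Ccl4, which attract monocytes and T cells, were nearly absent at 15 min. Control members held 124 UMIs of Ccl3, 15 min members 2 and 60 min members 136, or 1484, 110 and 1038 CPM, and the 15 min ratio to the control was 0.0740 (0.00887 to 0.273). For Ccl4 they held 181, 1 and 192 UMIs, or 2167, 54.9 and 1465 CPM, a ratio of 0.0254 (0.000639 to 0.143). Of the 8 cells at 15 min 1 held Ccl3 and 1 held Ccl4, compared with 21 and 16 of the 35 control cells and 29 and 19 of the 43 at 60 min. Since many control cells held none either, the 15 min cells lay within the range of the control for both genes.

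Decoy and inhibitor of the IL-1 pathway were also low at 15 min. Il1r2, a decoy receptor that binds IL-1 without signalling, stood at 2358 CPM in control cells (2040 to 2711), 275 CPM in the 15 min cells (89.2 to 641) and 1564 CPM in the 60 min cells (1358 to 1794). It was held by 34 of 35, 4 of 8 and 36 of 43 cells. Il1rn, the IL-1 receptor antagonist, was at 1879, 330 and 969 CPM. For both genes the 15 min interval lay wholly below the others, while Il1b itself was highest there. Low values at 15 min were also given by Cd14, the co-receptor for bacterial lipopolysaccharide (1412, 220 and 1168 CPM), by Hcar2, a receptor for ketone bodies and niacin (1927, 385 and 1107 CPM), by Ptafr, the receptor for platelet-activating factor (1161, 165 and 717 CPM), and by Acod1 (2334, 275 and 2022 CPM).

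**Figure D2:**
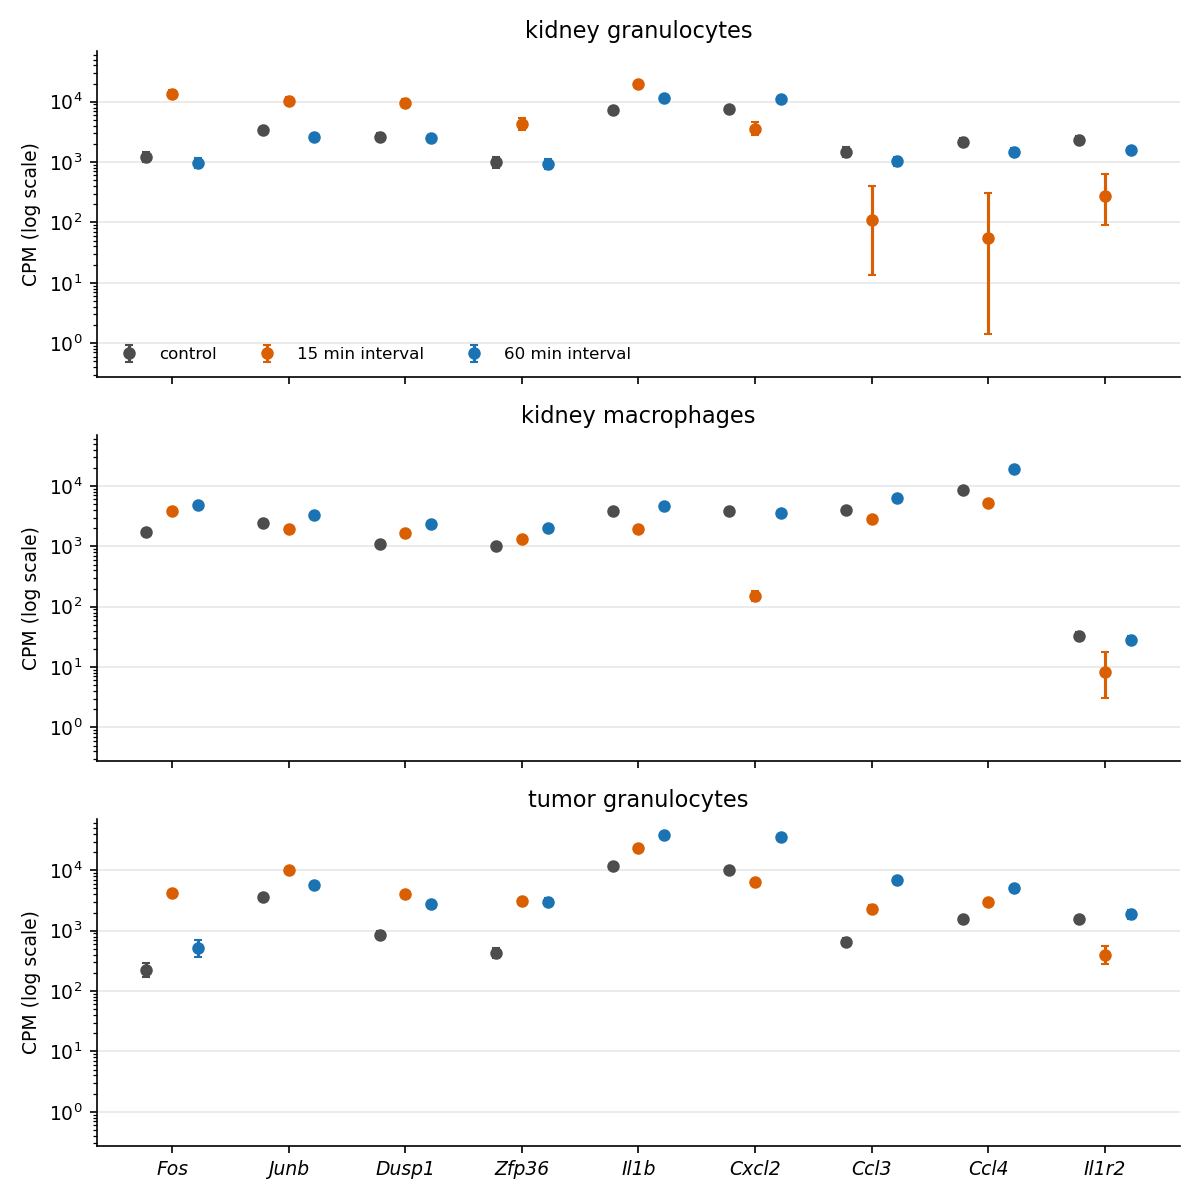
Pooled CPM (log scale) of 9 genes in granulocytes of the kidney (top), macrophages of the kidney (middle) and granulocytes of the tumor (bottom), with 1 point per library and exact 95% Poisson intervals. In kidney granulocytes the 15 min point is the highest for Fos, Junb, Dusp1, Zfp36 and Il1b and the lowest for Cxcl2, Ccl3, Ccl4 and Il1r2.

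Some neutrophil genes were higher at 15 min as well and others were not. Cxcr2 was at 407, 1593 and 374 CPM, Mmp9 at 814, 1648 and 725 CPM, Stfa2l1 at 323, 1593 and 450 CPM and lysozyme (Lyz2) at 1388, 5604 and 2968 CPM. Cxcr2 was held by all 8 cells at 15 min, by 17 of 35 control cells and by 27 of 43 cells at 60 min. Stfa2l1, in contrast, was found in only 4 of the 8 cells, and 24 of its 29 UMIs came from 1 cell. Csf3r (1843, 1868 and 1313 CPM) and the chemokine Ccl6 (2047, 1978 and 1885 CPM) were level between the control and 15 min. The 14 genes of a mature neutrophil list summed to 1.66 times the control at 15 min (1.53 to 1.80) and 1.02 times at 60 min (0.969 to 1.08), and most of the 15 min difference was Il1b. Without Il1b the 15 min ratio was 1.26 (1.13 to 1.40), and 1.16 (1.04 to 1.29) against the unmixed control cells. The 32 genes of the neutrophil identity list summed to 1.05 times the control at 15 min (0.968 to 1.13), and to 0.969 times the unmixed control cells (0.895 to 1.05).

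**Figure D3:**
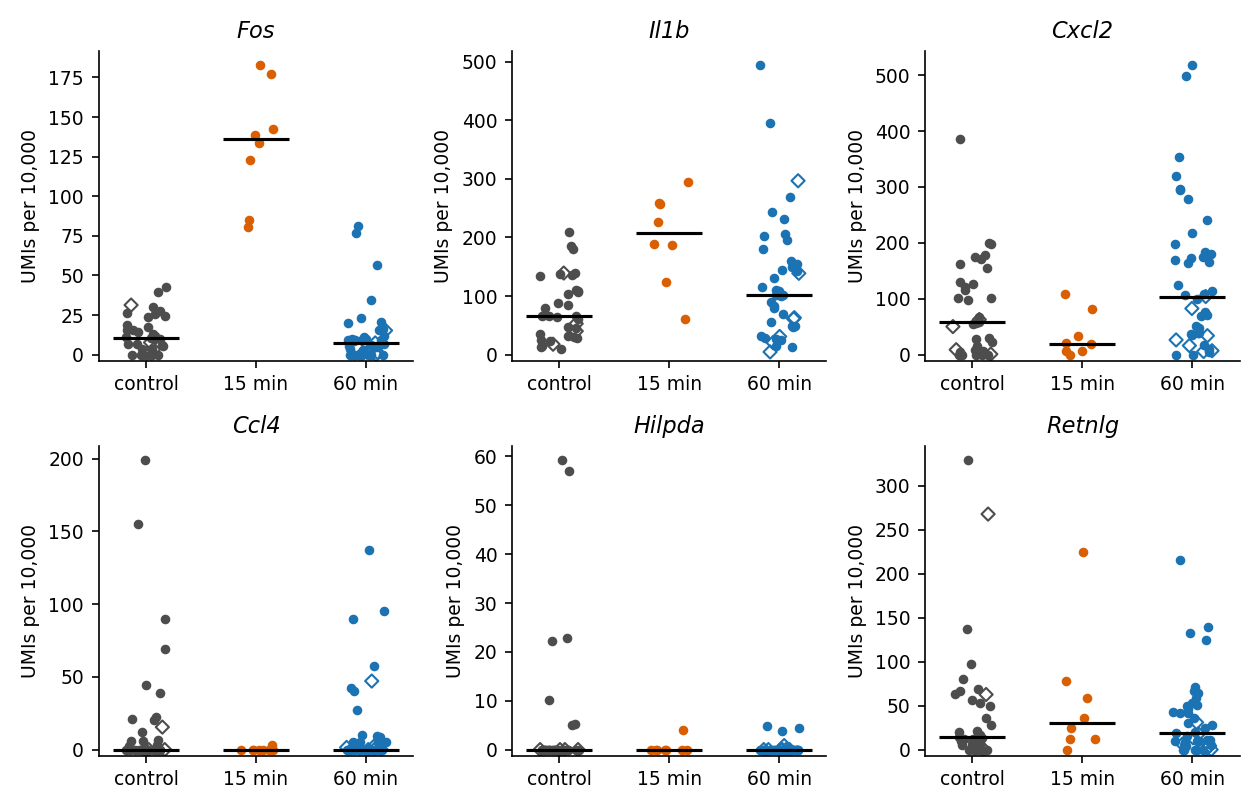
UMIs per 10,000 in each granulocyte by library, with the median as a line and mixed cells as open diamonds. Fos separates the 8 cells of the 15 min interval from the control cells, whereas Il1b, Cxcl2 and Retnlg overlap between libraries and Hilpda UMIs come from few control cells.

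Whether other cells showed the same order was examined in kidney macrophages and in tumor granulocytes. Tumor cells were taken by the same gate and, since many of those also held keratin messages of tumor epithelium, were limited to the 189 with Csf3r, Cxcr2 or Retnlg and without Krt8, Krt18 or Epcam (105, 46 and 38 in the control, 15 min and 60 min libraries). In tumor granulocytes Fos was at 225, 4143 and 511 CPM, Junb at 3595, 9992 and 5821 CPM and Dusp1 at 858, 4001 and 2744 CPM, so each was highest at 15 min as in the kidney. Il1r2 was lowest at 15 min there too (1577, 402 and 1876 CPM), as was Cxcl2 (10253, 6491 and 35562 CPM). Ccl3 was not, with 649, 2316 and 6791 CPM.

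Kidney macrophages, 797, 124 and 1394 cells, gave another order for the early genes. Fos was at 1702, 3873 and 4890 CPM and Dusp1 at 1092, 1647 and 2381 CPM, highest at 60 min, while Junb was lowest at 15 min (2477, 1926 and 3293 CPM). Cxcl2 was at 3914, 152 and 3531 CPM, so its 15 min value was the lowest in both cell types. The 12 stress genes summed to 0.910 times the control at 15 min and 1.83 times at 60 min in macrophages, and to 2.33 and 1.64 times in tumor granulocytes. The differences between cell types were not tested.

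**Figure D4:**
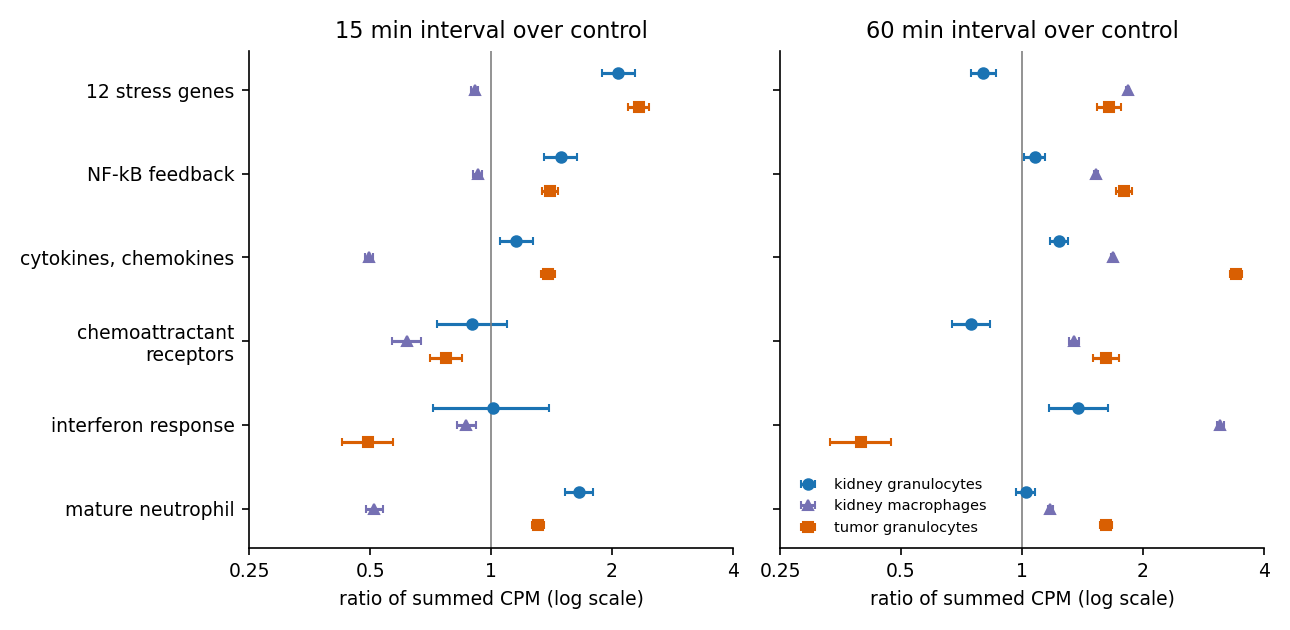
Ratio of the summed CPM of 6 gene lists to the control (log scale) at the 15 min (left) and 60 min (right) interval in kidney granulocytes, kidney macrophages and tumor granulocytes, with 95% counting intervals. For the 12 stress genes the kidney granulocytes lie at 2.07 at 15 min and at 0.802 at 60 min, while macrophages lie at 0.910 and 1.83.

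Between the 60 min interval and the control, messages such as Hilpda, Hist1h1c and Tet3 were lower in the granulocytes and messages such as Apoe, Gm5483 and Vim were higher, with and without mixed cells. Of 1430 genes with at least 20 UMIs over both libraries, 137 were at least 2-fold higher at 60 min (9.58%) and 56 at least 2-fold lower (3.92%), with a median ratio of 1.03. Without mixed cells, 42 of 983 were higher (4.27%) and 57 lower (5.8%), with a median ratio of 0.974. Only 22 of the higher genes and 38 of the lower ones were called in both, which is 16.1% and 67.9% of the calls over all members. The 95% interval of the ratio lay wholly past 2-fold for 8 higher genes, Apoe, Ass1, Crip1, Gm5483, Tmsb10, Ttr, Vim and Wfdc17, and for 3 lower ones, Hilpda, Hist1h1c and Tet3.

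Hilpda, a lipid droplet protein induced by hypoxia (chromosome 6, 29272488 to 29275446, plus strand, mm10), had 38 UMIs in 7 of the 35 control cells and 4 UMIs in 4 of the 43 cells at 60 min. The levels were 455 CPM (322 to 624) and 30.5 CPM (8.32 to 78.2), a ratio of 0.0671 (0.0174 to 0.186). Of the 38 UMIs, 17 came from 1 cell and 9 from another, so a small number of control cells carried the difference. At 15 min Hilpda had 1 UMI. None of the 7 control cells was mixed, and without mixed cells the ratio was 0.0640 (0.0126 to 0.202).

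Vegfa and Hif1a, which like Hilpda are known from the response to hypoxia, were lower as well. Vegfa, the angiogenic growth factor, fell from 19 UMIs in 11 cells to 6 in 5 cells (ratio 0.201, 0.0658 to 0.524), and Hif1a, the oxygen-sensitive transcription factor itself, from 23 UMIs in 17 cells to 9 in 8 cells (0.249, 0.102 to 0.560). The upper bounds for both exceed 0.5, so a change smaller than 2-fold is within counting error. Without mixed cells the ratios were 0.128 (0.0242 to 0.435) for Vegfa and 0.232 (0.0765 to 0.593) for Hif1a. Among 11 tested genes of the glycolysis and hypoxia list, which holds Hif1a but neither Hilpda nor Vegfa, Hif1a was lower and 2, the glucose transporter Slc2a3 and the glycolytic enzyme Pgk1, were higher (ratios 2.0 and 2.34), with a list median of 1.03. Pgk1 was at 1.01 without mixed cells. The promoter pattern ACGTG, the core of hypoxia response elements, was held by 12 of 21 windows of this list and by 16.6% of all windows. It was also held by 9 of 29 windows of the stress and NF-kB feedback lists and by 4 of 20 of the cytokine and chemokine list.

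Other lower genes had various roles. The linker histone Hist1h1c fell from 40 to 14 UMIs (ratio 0.223, 0.112 to 0.419), the DNA demethylation enzyme Tet3 from 16 to 4, the transcription factor Klf10 from 24 to 11 and the stress gene Gadd45g from 22 to 9. Rgs2, a regulator of G protein signalling, fell from 34 to 17 UMIs. Each remained at least 2-fold lower without mixed cells. Of 9 adhesion genes tested only Icam1, the ligand of the beta-2 integrins, was lower (23 to 15 UMIs, ratio 0.416, and 0.317 without mixed cells), and of 14 cytokine receptors only Tnfrsf1b, a TNF receptor (71 to 49 UMIs, ratio 0.440, and 0.499 without). Nfkb1 was the single lower gene of 19 tested in the NF-kB feedback list (29 to 21 UMIs, ratio 0.462, and 0.330 without mixed cells), whose median ratio was 0.992.

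For several of the higher genes at 60 min most UMIs came from mixed cells. Crip1 had 159 UMIs at 60 min in only 3 cells and 0 in the control, at least 33.8-fold higher against a floor of 3 counts per library, and fell under 20 UMIs without mixed cells. Ttr, the plasma carrier transthyretin, had 42 UMIs in 5 cells against 0, of which 2 remained without mixed cells. Tmsb10 had 54 UMIs against 7, and 10 against 7 without mixed cells. Lyz2, with 389 against 116 UMIs, changed from a ratio of 2.14 (1.73 to 2.65) to 1.18 (0.898 to 1.56), since 247 of its UMIs came from 1 cell. Cybb, the catalytic subunit of the NADPH oxidase, had 31 UMIs against 4, and 24 of them in 1 cell.

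Some genes were higher in both counts. Apoe, the lipid carrier that macrophages make in quantity, had 66 UMIs in 12 cells against 2 in the control (ratio 21.0, 5.60 to 177), and 24 against 1 without mixed cells. Macrophages held Apoe at 7563, 7291 and 8588 CPM, and the part of free RNA in its 504 CPM at 60 min was not tested. Gm5483, a stefin A gene with near-identical copies among which reads may be split, had 25 UMIs in 8 cells against 1 (ratio 15.9, 2.61 to 654). Vim, the intermediate filament vimentin, had 117 UMIs against 15 (4.97, 2.89 to 9.17), and 40 against 12 without mixed cells (2.70, 1.39 to 5.66). Ifit3, an interferon-induced antiviral gene, had 23 UMIs in 4 cells against 4 in 2 cells. It was the only gene called among 8 tested of the interferon list, whose median ratio was 1.49 and whose sum was 1.38 times the control (1.17 to 1.64), and 1.37 times without mixed cells. Metrnl, a secreted myeloid cytokine, had 29 UMIs in 18 cells against 4 in 4 cells, and Akap13, a scaffold protein of kinase signalling, 50 UMIs in 26 cells against 13 in 10.

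Of the main cytokine messages none passed 2-fold at 60 min. Il1b was 1.57 times the control (1.43 to 1.73), Cxcl2 1.48 times (1.35 to 1.63) and Tnfaip2, a TNF-induced gene, 1.68 times (1.43 to 1.98), and without mixed cells the ratios were 1.71, 1.76 and 1.91. Tnf had 28 and 74 UMIs, a ratio of 1.68 that was 1.20 without mixed cells. Ccl3 and Ccl4 were at 0.699 and 0.676 times the control, and at 0.688 and 0.595 times without mixed cells. Over 13 cytokine and chemokine genes tested, Il1a was higher (8 to 26 UMIs, but 8 and 7 without mixed cells) and Vegfa lower, with a median of 1.02.

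Chemoattractant receptors lay below the control in sum without any of them being called. Cxcr4, the receptor that retains neutrophils in the marrow and rises as they age, was at 1257 and 755 CPM (ratio 0.601, 0.452 to 0.799, and 0.557 without mixed cells), and Ptafr at 0.618 times the control (0.578 without). The 13 chemoattractant receptors summed to 0.746 times the control (0.668 to 0.832), with 0 of 7 tested genes called and a median of 0.832, and without mixed cells to 0.773 times with a median of 0.952. The 16 cytokine receptors, of which only Tnfrsf1b was called, summed to 0.728 times the control (0.652 to 0.814), and to 0.827 times without mixed cells. Hcar2 was at 0.574 times (0.698 without).

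The direction of the neutrophil identity list depended on the mixed cells. Over all members 1 of 28 tested genes was called, Slfn1 lower (31 to 19 UMIs, ratio 0.391, but 0.626 without mixed cells), with a median of 0.924 and a summed ratio of 0.880 (0.842 to 0.919). Without mixed cells 2 of 27 were called, Stfa2l1 and Ifitm1 higher, with a median of 1.16 and a summed ratio of 1.06 (1.01 to 1.11). The 14 genes of actin and migration had 0 called in both counts, with medians of 0.967 and 1.08. Of the NADPH oxidase list only Cybb was called over all members, 7 genes being tested, and only Rac1, a regulator of the oxidase, without mixed cells (ratio 2.07, where Cybb was at 1.89).

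**Figure D5:**
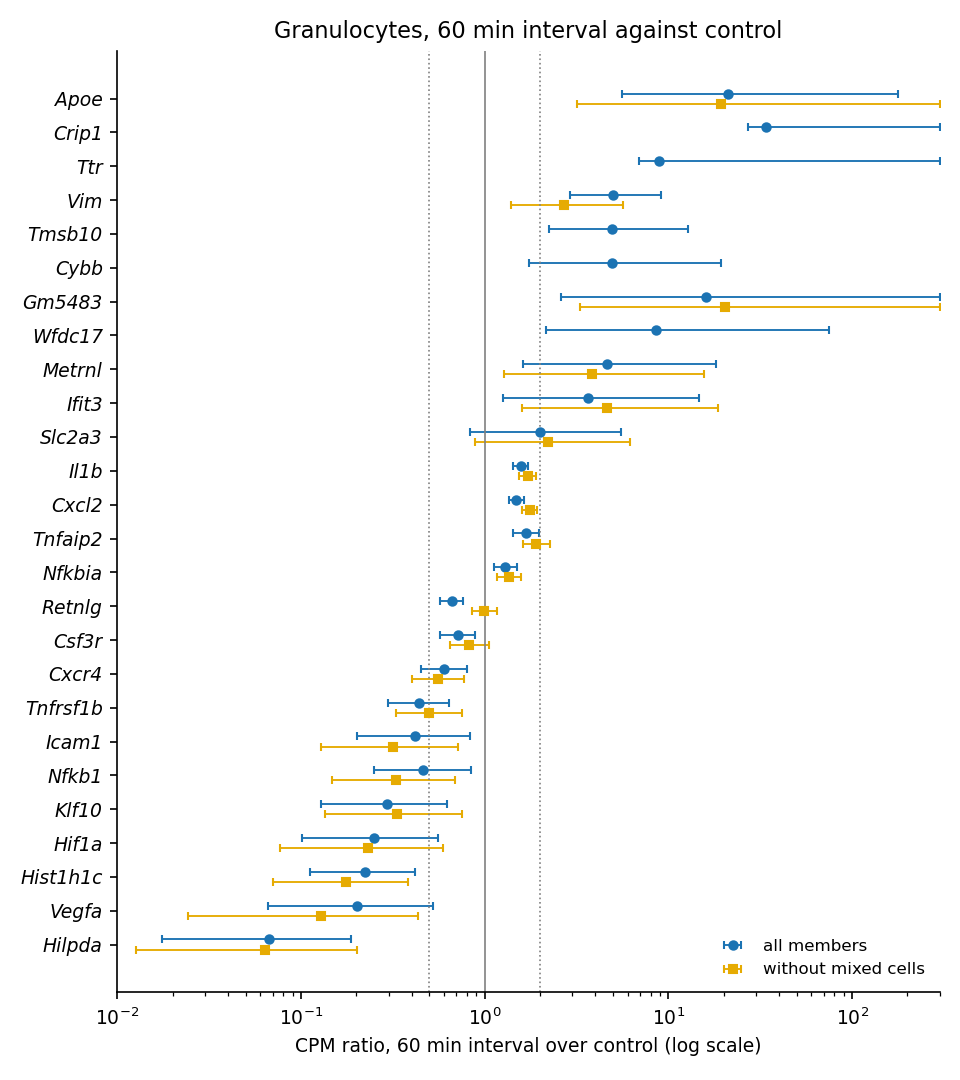
Ratio of pooled CPM between the 60 min interval and the control (log scale) for 26 genes, over all members (circles) and without mixed cells (squares, where at least 20 UMIs were left), with 95% counting intervals that are cut at the right edge of the axis. Dotted lines mark 2-fold, and for Crip1 and Ttr, which had 0 UMIs in the control, the point is a lower bound. Hilpda, Vegfa and Hist1h1c lie furthest to the left with both symbols, while Retnlg moves from 0.660 to 0.994 once mixed cells are left out.

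Kidney granulocytes were next set beside kidney macrophages of the same 3 libraries, which the gate had kept apart, so the counts are descriptive. Over 8120 genes with at least 50 UMIs, and without the 10 gate genes, 1516 were at least 2-fold higher in granulocytes (18.7%) and 1099 lower (13.5%), counting only genes that lay on the same side in the control and 60 min libraries taken alone. Without mixed cells 1290 of 7171 genes were higher and 1035 lower. With at least 200 UMIs, 926 of 5773 were higher and 1099 lower, so the balance of the 2 directions depended on the filter. It also depended on pool size, since the granulocytes held 232787 UMIs and the macrophages 15084281. A gene could be called higher on few granulocyte UMIs, whereas a lower call needed many macrophage UMIs. The excess of higher genes is therefore not read as a result. The higher genes over all members included the 6 genes of the proximal tubule list. All 25 tested genes of the neutrophil identity list were higher. Cxcr2 was at 481 CPM in granulocytes and 0.0663 in macrophages, Slpi at 2736 and 0.133, Hdc at 2182 and 0.398 and haptoglobin (Hp) at 1044 and 0.199 CPM. Retnlg was at 3862 CPM against 0 UMIs in macrophages.

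Cytokine programs split between the phagocytes. Granulocytes held more Il1b (10791 against 4265 CPM, 2.53 times), Cxcl2 (9348 against 3508, 2.66 times), Ptgs2 (1027 against 61.2, 16.8 times) and Il1r2 (1748 against 28.9, 60.5 times), and less Ccl3 (1125 against 5263) and Ccl4 (1607 against 14818). Of 22 cytokine and chemokine genes tested, 10 were higher and 8 lower. Antigen presentation genes were among the most strongly lower ones, with the invariant chain Cd74 at 206 against 38192 CPM and the class II gene H2-Aa at 64.4 against 12377 CPM. Among the 12 stress genes, 2 were higher and 6 lower, Jun among the latter (279 against 3487 CPM), and Gadd45b was 12.4 times higher in granulocytes. The heat shock gene Hspa1a, at 64.4 against 5207 CPM, was also lower. All 20 NF-kB feedback genes were tested and 8 were higher, 0 lower, Tnfaip2 by 71.5 times.

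Between kidney and tumor granulocytes, tissue, strain, sex and age differ together with the library and cannot be told apart. Over the 527 tumor cells of the same gate, 760 of 5112 genes were higher in the kidney (14.9%) and 1132 lower (22.1%), again with the same side required in both libraries. Over the 75 unmixed kidney and 189 keratin-free tumor cells, 174 of 1349 genes were higher in the kidney (12.9%) and 180 lower (13.3%). The higher ones included all 3 tested proximal tubule genes, Kap, Gpx3 and Fxyd2. The proximal tubule list summed to 2137 CPM in these kidney cells and to 0 in the tumor cells, and the part of free RNA was not tested. The levels below are from these cells. Thbs1, the matrix glycoprotein thrombospondin 1 (chromosome 2, 118111876 to 118127133, plus strand, mm10), was 14.9 times higher in kidney granulocytes without mixed cells (1909 against 128 CPM), and over all members was at 1903, 604 and 1381 CPM in the control, 15 min and 60 min libraries. Rdh12, a retinol dehydrogenase, was at 452 against 2.41 CPM, and H2-Q10, a soluble class I molecule, at 650 against 2.41 CPM. Slpi (3131 against 561 CPM) and Mmp9 (981 against 243) were also higher.

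Several secreted and surface proteins had lower messages in the kidney. Saa3, an acute phase protein, had 0 UMIs in kidney granulocytes against 1995 CPM, at least 110-fold lower against a floor of 3 counts over the pooled cells. Wfdc17, an antiprotease-like secreted protein, was at 90.3 against 10539 CPM, Ifitm1, an interferon-induced membrane protein, at 644 against 8908 CPM, and Cd14 at 1132 against 10980 CPM. The secondary granule genes Camp and Ngp, at 0 in the kidney, were at 91.5 and 212 CPM in the tumor, with neither called. Of 11 tested genes of glycolysis and hypoxia, 1 was higher in the kidney (Slc2a3, 3.50 times) and 7 were lower, among them Pgk1 (60.2 against 272 CPM), with a list median of 0.457 where the median of all tested genes was 0.983. Retnlg did not pass 2-fold (4564 against 4182 CPM).

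Across the members, levels of gene lists were related after each cell had been thinned to 500 UMIs, which is given as a description over cells that share libraries. The mature neutrophil list and the cytokine list, which both hold Il1b and Ccl6, had a Spearman correlation of 0.521 over the 86 cells, 0.265 in the 35 control cells and 0.727 in the 43 at 60 min. Il1b and Cxcl2 had a correlation of 0.428 over all cells, 0.492 in the control and 0.587 at 60 min. The cytokine and NF-kB feedback lists had 0.435 over all cells, and 0.284 over the 75 unmixed cells. Cxcl2 and Retnlg had a correlation of 0.0401 over all cells, -0.128 in the control and 0.300 at 60 min.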

How the data were processed

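Droplet libraries (10x 3' version 3 chemistry) of mouse kidney and MMTV-PyMT mammary tumor were used, 1 per condition. The authors aligned reads to mm10 with Cell Ranger 3.1.0 (per the submitters' processing notes) and combined the libraries of each tissue with read depth evened. The deposited matrices hold raw UMI counts and were not yet filtered. Libraries were assigned from barcode suffixes. The published limits on cells were applied again (tumor: 200 to 4000 genes, at most 25% mitochondrial UMIs), and no doublet caller was run. The gate, gene lists and alternatives were chosen with earlier results of these data known.

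Member counts were summed per library and scaled to CPM (Python 3.11.15, NumPy 2.4.6, SciPy 1.17.1). Genes were called at a ratio of at least 2 or at most 0.5 with at least 20 UMIs in both libraries together (50 between cell types). A library at 0 was set to a floor of 3 counts. Intervals (95%) are Poisson, Clopper-Pearson and, for gene ratios, conditional binomial, and those of share ratios are on the log scale. Share weights of 1 and 1.5 follow the study's aggregates. Macrophages held at least 10 C1q UMIs, fewer than 10 of S100a8 and S100a9 and met the other gate limits, and proximal tubule cells held at least 20 UMIs of Miox, Gpx3 and Fxyd2 and 0 of Ptprc, with 1000 of each sampled for thinning. Named genes were those of 18 lists, the 15 most abundant, the 20 of highest ratio to other kidney cells, and per comparison the 12 of largest ratio each way in at least 5 cells. Crip1 and Ass1 were named after their values had been seen. Promoter windows are RefSeq's, gene positions GENCODE's. The code was tested on simulated counts.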

Additional observations from a re-analysis of the deposited data

Results flagged for a closer look

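Gene lists were picked out where the ratio to the control lay above 1 in one kind of cell and below 1 in the other, with both counting intervals clear of 1, and where the kidney granulocytes stayed clear of 1 on the same side without mixed cells. None of these differences was tested, since each condition had 1 library, and ratios at both times share the control.

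At 15 min, kidney granulocytes and kidney macrophages lay on opposite sides for the primary granule list (4.04 and 0.579 times the control), the mature neutrophil list (1.66 and 0.512), the NF-kB feedback list (1.49 and 0.925), the 12 stress genes (2.07 and 0.910) and the actin and migration list (1.19 and 0.857). Against the unmixed control cells the granulocyte ratios were, in the same order, 4.03, 1.52, 1.29, 1.85 and 1.08. Tumor granulocytes were at 0.399 for the primary granule list. All UMIs of that list at 15 min were Lyz2 in the granulocytes. For the mature list the granulocyte ratio was 1.26 without Il1b. The granulocyte values rest on 8 cells.

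At 60 min, the chemoattractant receptors were at 0.746 times the control in kidney granulocytes, at 1.35 in macrophages and at 1.62 in tumor granulocytes. The 12 stress genes were at 0.802 in kidney granulocytes, at 1.83 in macrophages and at 1.64 in tumor granulocytes. The value of 0.802 is a pooled one. The median kidney granulocyte, on the per-cell scale used above, was nearly level, at 140 in the control and 139 at 60 min. The highest cells were at 488 and 290. The interferon list was at 1.38 in kidney and 0.397 in tumor granulocytes.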

How the results depend on the processing

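The shares of granulocytes stayed within the counting interval of the reported share under every alternative gate and limit. Counts of genes past 2-fold depended on the filter. For the 60 min interval against the control they were 137 higher and 56 lower, and became 37 and 15 with at least 50 UMIs, 692 and 402 with at least 5, 8 and 3 with the interval wholly past 2-fold, and 42 higher without mixed cells, a choice made after the data had been seen. Against macrophages, 1516 higher became 926 with at least 200 UMIs. Against the tumor, 760 higher and 1132 lower became 240 and 484 with at least 200 UMIs, 345 and 440 with a neutrophil gene required in each cell, and 174 and 180 without mixed and keratin-positive cells. Fewer genes were tested under the stricter filters and the smaller cell sets. Another 51 recomputed values of these results stayed close to those reported. Ratios of single genes moved beyond their counting interval in 13 cases and stayed within it in 169, and list sums in 99 and 117. Without mixed cells the 60 min ratio of 8 of the 18 list sums crossed 1, among them neutrophil identity (0.880 to 1.06), tertiary granules (0.903 to 1.12), adhesion (0.907 to 1.08) and actin (0.921 to 1.03), and of 90 genes called over all members that could still be tested, 2 crossed 1, Cd74 and Rps18. Il1a, at 2.07, was at 0.709 with under 20 UMIs. No count of genes was made at 15 min, where 8 cells lie under the minimum of 10, so its alternatives were not run. No paired analysis was possible because each condition had 1 library.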
